A study of Mus musculus with 6 samples.

Results

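The S100 genes encode a family of small calcium-binding proteins, and 10 of them were followed here: S100a1, S100a4, S100a6, S100a8, S100a9, S100a10, S100a11, S100a13, S100a16 and S100b. They were taken by gene symbol from deposited tables that hold 24147 rows of genes or gene copies, and each symbol stood on 1 row. The libraries came from the lens of wild type C57BL/6 mice aged 2 months. The lens fiber cells were removed from the living eye through a cut in the cornea, as a model of cataract surgery, and the capsule with its attached lens epithelial cells was collected either at once (0 h, 3 libraries) or 24 h later (3 libraries). All 6 libraries thus share the operation, and no unoperated lens was compared. The libraries of a time are described as biological replicates, but the number of eyes or animals behind each library is not known here. The p-values thus measure only the spread between these libraries.

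An S100 protein carries a pair of EF-hand loops that hold calcium, and most members work as dimers. Calcium binding exposes a surface through which the dimer grips a target protein, among them annexins, myosins and the tumour suppressor p53. Several members also leave the cell, and outside it act as alarm signals on receptors such as RAGE (Ager) and TLR4. S100a8 and S100a9 form calprotectin, which withholds zinc and manganese from microbes and is abundant in neutrophils and monocytes. S100a4 is often used as a marker of fibroblasts and of epithelial cells that turn mesenchymal, a change studied in the clouding of the capsule after cataract surgery.

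Library totals were 8069314 to 10862573 counts. Levels are given in CPM, the count scaled to a common library size, after TMM scaling, which corrects for unequal library make-up. The labelled tissue was checked against its markers. Cryaa and Cryab, the alpha-crystallin genes, were the most abundant of the lens epithelium markers, and Cryaa lay at 41498 to 111905 CPM over the 6 libraries. Most of the lens markers were lower at 24 h. Of 8 lens epithelium markers 5 fell and 0 rose, with a median log2 fold change of -1.01. Over all genes tested 13.0% fell and 15.2% rose. The sum of these markers went from 85277 to 144905 CPM at 0 h to 52729 to 66167 CPM at 24 h, and Cryaa made up most of it. Any part of fiber cell RNA in Cryaa and Cryab was not tested, so this sum does not measure epithelial RNA alone. Besides Cryab, the markers that fell were Foxe3, Pitx3, Mab21l1 and Npnt (2.94-fold, 2.00-fold, 2.03-fold and 5.10-fold). Cryaa, Pax6 and Cdh1 were not called in edgeR (adjusted p = 0.0746, 0.0946 and 0.833). Cryaa was called lower with DESeq2 and limma-voom (adjusted p = 0.000121 and 0.0470). Of 8 fiber cell markers 7 fell and 0 rose, with a median of -1.64, among them the crystallin genes Crygs (3.30-fold) and Cryba2 (2.76-fold). The part of these shifts in the S100 changes was not tested. Genes of neighbouring tissue were also measured in the same libraries. Photoreceptor markers summed to 1867 to 5725 CPM at 0 h and 1004 to 4475 CPM at 24 h, and blood vessel and muscle markers, with Myh11 and Kdr highest, to 14.6 to 58.2 and 23.5 to 90.7 CPM. In tissue of several cell types, a change in the number of cells of a type and a change in RNA per cell cannot be told apart.

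At 24 h, 6 of the 10 S100 genes were higher than at 0 h and 0 were lower. Those that rose were S100a8, S100a9, S100a6, S100a10, S100a11 and S100a16. The test was edgeR's quasi-likelihood test with Benjamini-Hochberg adjustment over all 13956 genes tested, where 15.2% of genes were called higher and 13.0% lower at an adjusted p under 0.05. The median log2 fold change of the 10 genes was 1.45, and that of all genes tested was -0.03. All 24 h libraries lay above all 0 h libraries for 7 of the 10 genes, against 22.9% of genes tested, and 44.7% of genes tested had times that did not overlap in either direction. No member was lower at an unadjusted p under 0.05 in edgeR (count 0), nor at an adjusted p under 0.05 with DESeq2 or limma-voom (counts 0 and 0). All 10 genes passed the filter on low counts, but S100a8 and S100a9 passed it only through their counts at 24 h. Their part in the counts and the median above is thus no support. Of the 8 members at the filter's cutoff in all 0 h libraries, S100a6, S100a10, S100a11 and S100a16 were called higher and none lower.

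**Figure D1:**
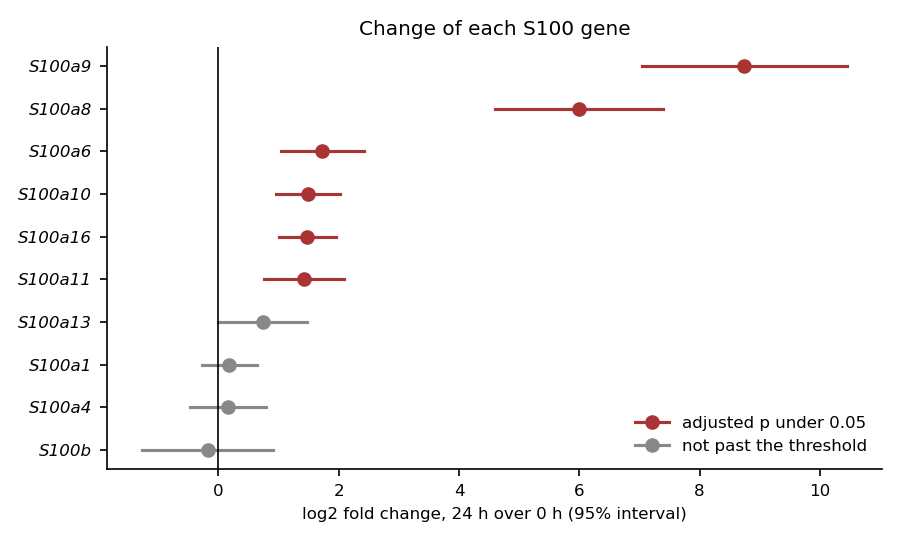
Log2 fold change of each S100 gene at 24 h over 0 h (x axis), with its 95% interval from edgeR as a bar, 1 gene per line. The 6 genes in red passed an adjusted p of 0.05, and S100a8 and S100a9 stand apart at 6.00 and 8.74, while the other 4 called genes lie between 1.42 and 1.73.

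The 2 calprotectin genes went from the edge of detection to moderate levels. S100a8 (chromosome 3, 90669071 to 90670034, mm10) had 1, 1 and 2 counts in replicates 1 to 3 at 0 h and 43, 140 and 90 counts at 24 h. In CPM these were 0.10, 0.10 and 0.24 against 5.50, 14.9 and 9.52. The rise of S100a8 was 63.8-fold, with a 95% interval of 24.1 to 169 (log2 fold change 6.00 ± 0.62 SE, adjusted p = 0.000314), and the 2 times did not overlap. The 0 h side of this fold rests on 4 counts in all and is under a floor of 3 counts in each library, so its size is uncertain. S100a9 (chromosome 3, 90692630 to 90695721) had 1 count in 0 h replicate 1 and 0 in the other 0 h libraries, and 80, 273 and 224 counts at 24 h. Its levels at 24 h were 10.2, 29.0 and 23.7 CPM, where a floor of 3 counts is 0.301 to 0.384 CPM in a library. The ratio of summed S100a9 levels was 609, and its exact 95% counting interval of 109 to 24080 covers counting error only (adjusted p = 0.000150). The fitted log2 fold change of 8.74 ± 0.75 (SE) became 10.57 without 0h replicate 1, the library with the single count. For both genes 24 h replicate 2 was the highest library and 24 h replicate 1 the lowest. Among the 13956 genes tested, S100a9 stood at the 99.97th percentile of log2 fold change and S100a8 at the 99.51st. Per kilobase of gene length, S100a8 reached 0.718, 0.686 and 0.537 of the S100a9 level in the 3 libraries at 24 h (mean 0.647 ± 0.0966 SD). This ratio differed less between the 24 h libraries than the levels of either gene did.

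**Figure D2:**
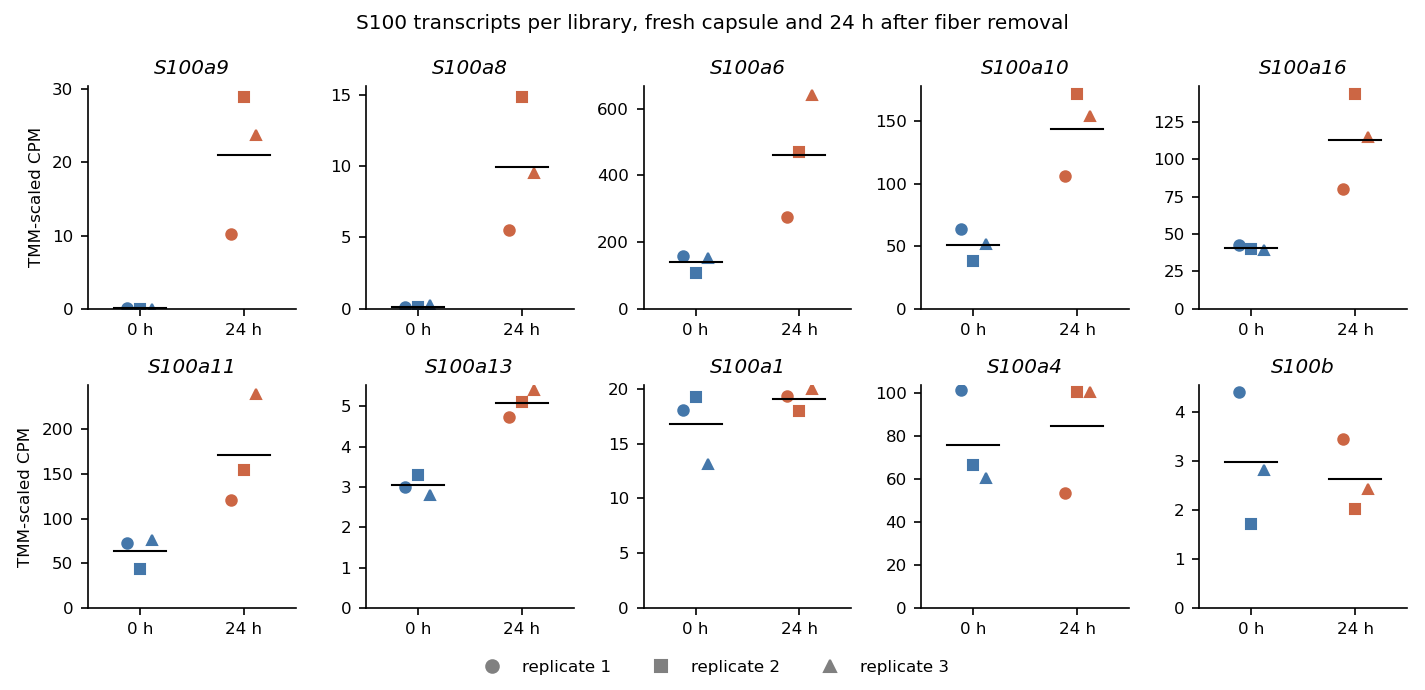
TMM-scaled CPM (y axis, from 0, a scale for each gene) of the 10 S100 genes in the 0 h and 24 h libraries, where each point is a library, its shape the replicate number and the black line the mean of 3. S100a8 and S100a9 sit near 0 at 0 h, and the points of the 2 times overlap only for S100a1, S100a4 and S100b.

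The 2 calprotectin genes lie 22595 bases apart and point towards each other. The 250 bases before their start sites are shown because these 2 genes rose the most and because both stretches hold the C/EBP-type word that no other matched member held. The sequences are RefSeq's, on GRCm38.p6, read 5′ to 3′ on the gene's own strand (+ for S100a8, chr3:90668821-90669070, and - for S100a9, chr3:90695722-90695971). Capitals mark any match, on either strand, to a short word that stands for a class of factors. The C/EBP word was TTNNGNAA, where N is any base. The AP-1 word was TGANTCA and the TATA box TATAAA. For STAT factors the word TTCNNNGAA was searched. For the antioxidant response element it was TGACNNNGC, and for NF-kB a run of G followed at a fixed distance by a pair of C. Words may overlap each other.
S100a8: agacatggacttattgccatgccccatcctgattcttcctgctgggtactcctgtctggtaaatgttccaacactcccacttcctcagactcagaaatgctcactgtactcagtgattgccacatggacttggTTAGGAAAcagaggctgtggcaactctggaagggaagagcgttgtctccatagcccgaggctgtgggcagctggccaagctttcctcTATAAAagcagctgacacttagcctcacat
S100a9: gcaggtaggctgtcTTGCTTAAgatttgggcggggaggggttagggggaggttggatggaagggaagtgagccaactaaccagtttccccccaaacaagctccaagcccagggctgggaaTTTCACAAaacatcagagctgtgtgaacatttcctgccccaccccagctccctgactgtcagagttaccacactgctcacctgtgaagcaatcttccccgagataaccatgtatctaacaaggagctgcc
S100a8 holds 1 C/EBP-type match, 117 bases before its start, and a TATA box 30 bases before it. S100a9 holds 2 C/EBP-type matches, 236 and 130 bases before its start. The word is common: 36.8% of all 32851 RefSeq windows of this length hold it. Neither window held the NF-kB-type word, which stands in 45.8% of all windows. These are matches of letters and not sites of binding.

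S100a6, called calcyclin, had the highest mean level of the 10 genes at both times and rose 3.31-fold. The gene (chromosome 3, 90612894 to 90614414) stood at 159, 108 and 152 CPM in the 0 h libraries and at 275, 470 and 641 CPM in those of 24 h. Its lowest 24 h library was therefore above its highest 0 h library, with a 95% interval of the fold of 2.05 to 5.35 (log2 fold change 1.73 ± 0.30 SE, adjusted p = 0.00378). On the log2 scale the change was 1.42 to 2.03 when a single library was left out. S100a4 (chromosome 3, 90603770 to 90606045) starts in the same cluster, 6848 bases away from S100a6, and binds non-muscle myosin IIA. Its levels were 101, 66.5 and 60.3 CPM at 0 h and 53.5, 100 and 101 CPM at 24 h. The times overlapped and S100a4 was not called (log2 fold change 0.16, 95% interval -0.47 to 0.79, adjusted p = 0.716). A fall to 0.720 of the 0 h level and a rise to 1.73 times it are the ends of that interval. S100a4 counts may hold reads of the overlapping gene model Gm42674, which lies on the same strand in GENCODE M21.

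The ratio of these neighbours did not overlap between the times. Per kilobase, S100a6 stood at 1.09, 1.12 and 1.75 times the S100a4 level at 0 h and at 3.57, 3.26 and 4.42 times at 24 h. An exact two-sided permutation test of this ratio gave p = 0.1, the smallest that 3 against 3 libraries allow. That value follows from the lack of overlap and adds nothing to it.

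S100a10 and S100a11, which lie 28828 bases apart at the far end of the chromosome 3 cluster, rose by similar folds. S100a10 encodes p11, a member that has lost calcium binding, holds annexin A2 in a tetramer and presents plasminogen at the cell surface. S100a10 (chromosome 3, 93555117 to 93564645) was at 63.4, 38.3 and 52.0 CPM before and 106, 171 and 154 CPM after the 24 h. The times did not overlap and the rise was 2.81-fold, with a 95% interval of 1.94 to 4.07 (adjusted p = 0.00225). S100a11, a partner of annexin A1, lies at 93520496 to 93526288 on chromosome 3. Its levels were 73.0, 43.6 and 76.0 CPM at 0 h and 121, 155 and 239 CPM at 24 h. The rise of S100a11 was 2.67-fold, with a 95% interval of 1.69 to 4.24 (adjusted p = 0.00772), again with no overlap of the times.

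S100a16, a broadly expressed member, was even at 0 h and spread out at 24 h. The gene (chromosome 3, 90541223 to 90543151) was at 42.7, 39.7 and 39.4 CPM in the 0 h libraries and 80.4, 144 and 115 CPM in the 24 h libraries. It rose 2.79-fold, with a 95% interval of 2.01 to 3.86 (log2 fold change 1.48 ± 0.21 SE, adjusted p = 0.00127). The 4 genes S100a6, S100a10, S100a11 and S100a16 thus had overlapping intervals of their folds.

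The window before S100a11 is shown beside that before S100a4 as a called and an uncalled member of similar level at 0 h. Build, direction and capitals are as above, both genes are on the + strand, and the windows are chr3:93520246-93520495 and chr3:90603520-90603769.
S100a11: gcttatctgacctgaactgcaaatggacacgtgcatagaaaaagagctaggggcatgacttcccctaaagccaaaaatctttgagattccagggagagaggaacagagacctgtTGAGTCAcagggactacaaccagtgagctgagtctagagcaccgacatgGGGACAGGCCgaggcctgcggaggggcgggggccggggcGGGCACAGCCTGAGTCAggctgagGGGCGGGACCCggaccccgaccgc
S100a4: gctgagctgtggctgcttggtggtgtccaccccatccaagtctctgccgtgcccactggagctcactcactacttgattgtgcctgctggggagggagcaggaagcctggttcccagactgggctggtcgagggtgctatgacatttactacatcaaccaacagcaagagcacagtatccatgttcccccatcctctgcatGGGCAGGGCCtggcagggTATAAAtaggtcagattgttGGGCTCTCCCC
S100a11 holds 2 copies of the AP-1 word, 136 and 38 bases before its start, and 1 of the 2 windows of S100a16 holds it once, 192 bases before that start. In all windows its share was 6.75%. The NF-kB-type word, found in 45.8% of all windows, stands before 6 members, S100a1, S100a4, S100a6, S100a11, S100a13 and S100a16, of which 3 rose and 3 were not called. The windows of S100a1 and S100a13 overlap, and the only match of S100a1 is a match of S100a13 read on the other strand. S100a4 also has a TATA box, 31 bases before its start, which 12.4% of all windows hold. No member window held the STAT word, found in 7.02% of windows, and the antioxidant word, found in 10.2%, stood in a window of S100a16 only. Of the 10 members 9 were matched to a RefSeq window, and S100a10 was not.

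S100a13, S100a1 and S100b were not called. S100a13 takes part in the release of FGF1 and interleukin 1 alpha by a route outside the usual secretory pathway. Its levels were 3.01, 3.31 and 2.81 CPM at 0 h and 4.73, 5.10 and 5.39 CPM at 24 h. The times did not overlap, although S100a13 did not pass the test (1.67-fold, 95% interval 0.996 to 2.79, adjusted p = 0.128). These levels rest on 23 to 51 counts in a library. S100a1, known from heart and skeletal muscle, was at 18.0, 19.2 and 13.2 CPM in the 0 h and 19.3, 17.9 and 19.98 CPM in the 24 h libraries (log2 fold change 0.18, 95% interval -0.27 to 0.63, adjusted p = 0.547). A change of S100a1 larger than 1.55-fold upwards lies outside that interval. S100a1 (90511034 to 90514330, - strand) and S100a13 (90514435 to 90524581, + strand) stand head to head on chromosome 3 with 104 bases between their deposited ends.

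S100b, the member best known from astrocytes and Schwann cells, is the only one of the 10 outside chromosome 3 (chromosome 10, 76253836 to 76261319). Its levels were 4.41, 1.70 and 2.81 CPM at 0 h and 3.45, 2.02 and 2.43 CPM at 24 h, from 17 to 44 counts a library. The times overlapped (log2 fold change -0.18, 95% interval -1.27 to 0.91, adjusted p = 0.817), and the sign turned to 0.26 without 0h replicate 1. Dip2a overlaps S100b on the opposite strand, and whether counting used strand is not known here. Beside it, glial and neural crest markers went both ways. Of 5 tested, Gfap rose 2.48-fold (adjusted p = 0.0138, but 0.0517 without 0h replicate 2), Slc1a3 fell 2.75-fold (adjusted p = 0.000193) and 3 were not called, among them Glul, the highest. Over all genes tested 15.2% were higher and 13.0% lower. Sox10, a defining gene of neural crest and Schwann cells, was at 0 to 3.17 CPM, and Gfra3 had 0 counts in all libraries.

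Comparing members with each other needs levels per kilobase of gene length (RPKM, here from TMM-scaled counts). At 0 h the order was S100a6, S100a4, S100a11, S100a10, S100a16, S100a1, S100a13, S100b, S100a8 and S100a9, with means of 194, 152, 127, 78.8, 38.3, 27.3, 4.25, 1.79, 0.378 and 0.0637 RPKM. The ranges of neighbours overlapped among the first 4, and from S100a10 down to S100a8 neighbours did not overlap. S100a8 and S100a9, each under the floor of 3 counts in every 0 h library, cannot be ordered. At 24 h the order was S100a6, S100a11, S100a10, S100a4, S100a16, S100a9, S100a1, S100a8, S100a13 and S100b, with means of 643, 340, 221, 170, 107, 40.0, 31.0, 25.4, 7.10 and 1.59 RPKM. Neighbours overlapped among the first 5 and among S100a9, S100a1 and S100a8. By mean level S100a4 was below S100a6 alone at 0 h, and below S100a6, S100a11 and S100a10 at 24 h.

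Together the S100 genes held 0.0381% ± 0.00432 of all counts at 0 h and 0.107% ± 0.0363 at 24 h (SD, n = 3 and 3). Summed per kilobase, they were at 506 to 744 RPKM at 0 h and 1045 to 2027 RPKM at 24 h. S100a4 made up 24.3% ± 4.41 of that sum at 0 h and 10.7% ± 1.03 at 24 h, and S100a6 31.0% ± 2.28 and 39.7% ± 3.8. S100a10, S100a11 and S100a16 held shares whose ranges overlapped between the times. S100a8 and S100a9 together remained a small part even at 24 h, with mean shares of 1.59% and 2.45%.

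**Figure D3:**
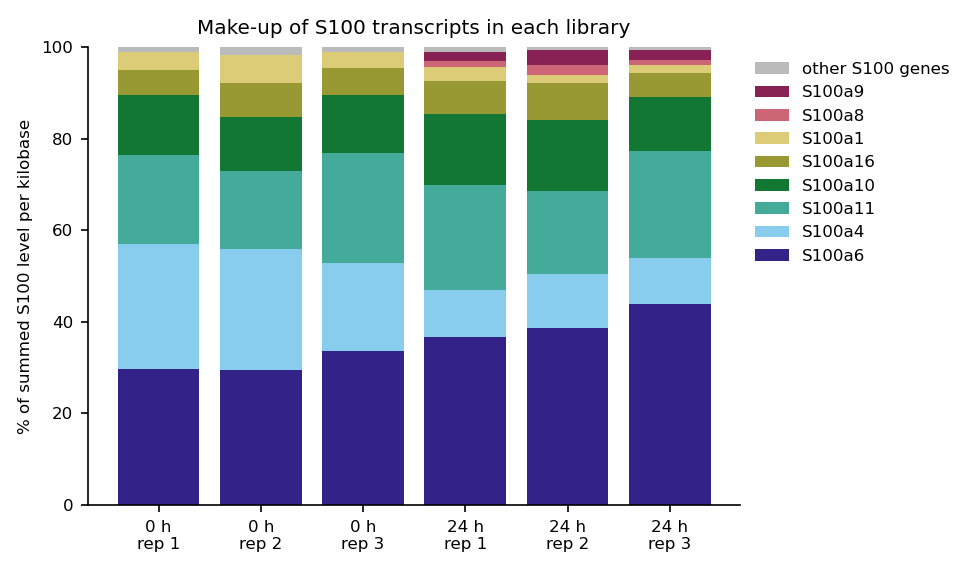
Share of each S100 gene in the summed S100 level per kilobase (y axis, percent) for each library (x axis). The S100a4 block is 19.2% to 27.3% at 0 h and 9.94% to 11.9% at 24 h, and the S100a8 and S100a9 blocks are visible only at 24 h.

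Among the 6 genes that rose, 24 h replicate 1 was the lowest 24 h library for all 6, and replicate 2 was the highest for 4 and replicate 3 for 2. That library also held the most Rn45s, the ribosomal RNA precursor, at 15.4% of its counts against 5.04% and 5.0% in the other 24 h libraries and 2.44% to 3.45% at 0 h. With Rn45s left out, an alternative added after the data were seen, 6 members were higher, and 6 were higher without 24h replicate 1. The calls are thus as many without that library as with it.

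Other S100 genes were barely detected, and none of 7 passed the filter on low counts. S100a3, known from hair cuticle, had 1, 0 and 0 counts at 0 h and 3, 11 and 9 at 24 h, a ratio of 24.3 with an exact 95% counting interval of 3.94 to 999. S100a14, an epithelial member, had 0 counts in all 0 h libraries and 6, 0 and 12 counts at 24 h, which is at least 6.33-fold higher against 3 counts over the group. The 2 libraries with S100a14 counts were those with the most corneal and surface epithelium markers. S100a7a had 1 to 16 counts at 0 h and 2 to 12 at 24 h, and S100g had 1, 4 and 0 counts at 0 h and 0 in every library at 24 h. S100a2 and S100a5 had 0 counts in all 6 libraries, and S100z had 1 count in all. A count of 0 in a library allows up to 0.301 to 0.384 CPM. Of the fused-type genes, in which an S100 domain heads a long repeat protein, 6 of 7 listed were found, 3 had 0 counts throughout, and Tchh, the 1 gene tested, was not called (adjusted p = 0.672).

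On chromosome 3 the 9 members there and 5 other S100 genes share an interval of 3053612 bases with 56 other genes, many of them of the epidermal differentiation complex, which makes the cornified envelope of skin. Of these 56 genes, 37 had 0 counts in all libraries and 3 passed the filter. The other genes together summed to 0.802 to 2.20 CPM at 0 h and 73.0 to 98.99 CPM at 24 h. The 2 called among them, both higher, were Sprr1a and Sprr2e, precursors of that envelope. Both passed the filter only through their 24 h libraries, so a count of calls here is no support. Over all genes tested 15.2% were called higher. Sprr1a alone was at 64.5 to 84.5 CPM at 24 h. Sprr1a had 0, 3 and 3 counts at 0 h and 661, 705 and 610 at 24 h (adjusted p = 1.18e-05). Sprr2e had 0 counts at 0 h and 29, 41 and 14 at 24 h, at least 29.5-fold higher, though reads may be shared with near-identical Sprr2 copies. S100a9 and S100a11 are the members on either side of most of these genes, 2824774 bases apart, and both rose.

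**Figure D4:**
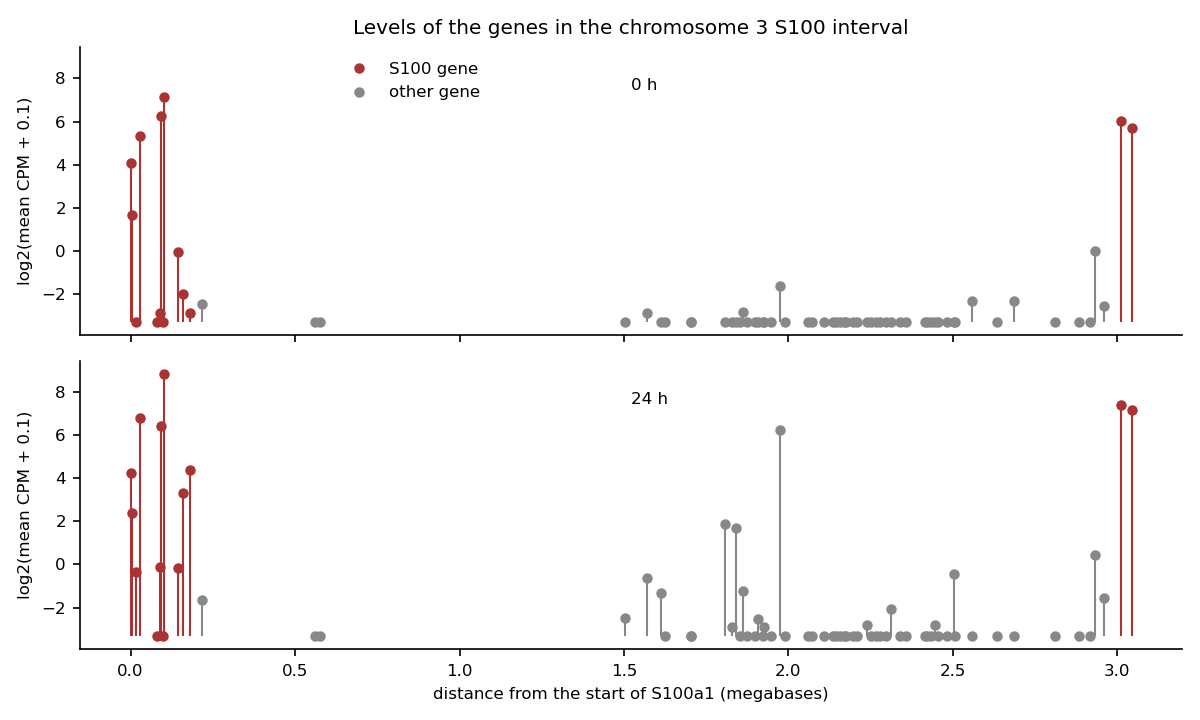
Level of each gene in the chromosome 3 interval as log2(mean CPM + 0.1) (y axis) against its distance from the start of S100a1 in megabases (x axis), at 0 h above and 24 h below, with S100 genes in red. The 14 S100 genes stand at the 2 ends, and between them Sprr1a is the tallest of the other genes at 24 h.

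Annexins, the best known S100 partners, rose in 6 of 10 tested members out of 12 listed, and 0 were lower (0 also at an unadjusted p under 0.05 in edgeR and with DESeq2 or limma-voom). Their median log2 fold change was 0.75. Anxa8 and Anxa9, the latter not called, would not have passed the filter on their 0 h libraries alone, so the call of Anxa8 is no support. Over all genes tested 15.2% were higher. Anxa2, the partner of S100a10, was at 173, 114 and 165 CPM in the 0 h libraries and 720, 937 and 1024 CPM in the 24 h libraries, a 5.94-fold rise (adjusted p = 0.000168). Anxa5, a binder of exposed phosphatidylserine, rose 2.21-fold (adjusted p = 0.00108). Anxa1, the partner of S100a11, did not pass the test, with 1648, 578 and 1220 CPM in the 0 h libraries and 747, 660 and 1524 CPM in the 24 h libraries (adjusted p = 0.724). The other annexins that rose were Anxa4, Anxa6, Anxa7 and Anxa8, and the last went from 0.301 to 0.854 CPM to 26.0 to 59.2 CPM (92.0-fold).

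The ratios of 2 members to their annexins did not overlap between the times. The per-kilobase level of S100a10 was 0.775, 0.711 and 0.668 of that of Anxa2 at 0 h and 0.312, 0.386 and 0.319 at 24 h. S100a11 was at 0.123, 0.209 and 0.172 of Anxa1 at 0 h and 0.447, 0.648 and 0.435 at 24 h. The first ratio was lower at 24 h and the second higher, each with p = 0.1 in the exact permutation test, the smallest possible. That value again follows from the lack of overlap and adds nothing to it.

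Of 20 genes listed as other intracellular partners of S100 proteins, all were tested, and 10 were higher and 2 lower (median log2 fold change 0.45). Over all genes tested 15.2% were higher and 13.0% lower. Myh9, the myosin chain bound by S100a4, rose 2.87-fold from 389 ± 12.3 to 1117 ± 84.3 CPM (SD, n = 3, adjusted p = 0.000314 in edgeR), and its relative Myh10 fell 1.45-fold (adjusted p = 0.0241). Ahnak, the giant scaffold bound by S100a10 and Anxa2, was highest of the list at 1385 ± 72.4 and 1694 ± 154 CPM but did not pass the test (adjusted p = 0.248). Ncl, the nucleolar protein nucleolin, rose 1.44-fold (adjusted p = 0.0370). The calls of Ncl and Myh10 were lost with fewer libraries, Ncl without any but 0h replicate 1 (adjusted p from 0.0590 to 0.113) and Myh10 with either of 0h replicates 1 and 3 or of 24h replicates 1 and 2 left out, at adjusted p between 0.0621 and 0.101. The remaining examples were chosen after their values were seen. Trp53, the p53 gene, rose 2.54-fold, and the transglutaminases Tgm2 and Tgm1, enzymes that cross-link proteins, rose 14.8-fold and 21.9-fold. The log2 fold change of Tgm1, 4.45, was 3.77 without 24h replicate 1. Of the 2 cargoes of S100a13, Fgf1 fell 5.13-fold (adjusted p = 0.0131) and Il1a rose 9.37-fold to 3.15 ± 0.765 CPM (adjusted p = 0.00401). Il1a would not have passed the filter on low counts on its 0 h libraries alone.

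Of 9 receptors and surface binders of S100 proteins, all tested, 2 were higher, a share near the 15.2% of all genes tested, and 0 were lower (0 also at an unadjusted p under 0.05 and with DESeq2 or limma-voom). Bsg, a binder of S100a9 and the highest of the list, was at 947 ± 190 CPM in the 0 h and 641 ± 210 CPM in the 24 h libraries (adjusted p = 0.141, and 0.0327 without 24h replicate 2), and Nptn and Alcam were not called either (adjusted p = 0.254 and 0.441). Ager was at 1.5 to 3.81 CPM over all libraries (adjusted p = 0.781) and Tlr4 at 14.8 to 22.0 CPM (adjusted p = 0.880). The 2 that rose were Cd14, a co-receptor of TLR4, which went from 2.1 to 5.01 CPM to 30.7 to 43.9 CPM (9.87-fold, adjusted p = 0.000220), and Mcam, at 1.81-fold (adjusted p = 0.0493). Mcam was not called with limma-voom (adjusted p = 0.0618), with no filter on low counts (0.0581), against a 1.5-fold change (0.305), with replicate number as a block (0.0634) or when any library but 24h replicate 2 was left out (adjusted p from 0.0665 to 0.170).

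Other EF-hand proteins served as a comparison within the same superfamily. Of 24 listed 22 were tested, 2 were higher and 3 lower, a called share of 22.7% that is near the 28.2% of all genes tested, with a median log2 fold change of -0.03. Sparc, a matrix glycoprotein and the highest of the list, was at 4382 ± 1396 CPM in the 0 h and 2836 ± 682 CPM in the 24 h libraries (adjusted p = 0.155, and 0.0493 without 0h replicate 2). Calm3, which encodes calmodulin, fell 1.85-fold from 383 ± 31.5 to 207 ± 19.4 CPM (adjusted p = 0.00304). The 2 higher genes were Calu, of the endoplasmic reticulum (1.74-fold, adjusted p = 0.0125), and Ncs1 (2.30-fold), and the other lower genes were Rcn2 and Sdf4 (1.71-fold and 1.62-fold). Rcn2 was not called without 0h replicate 3 or 24h replicate 1 (adjusted p = 0.0583 and 0.0538). The difference between this list and the S100 genes was not tested.

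Calprotectin is abundant in neutrophils, so their markers are given beside S100a8 and S100a9. Of 16 listed markers, which leave out both genes, 15 were found and 6 passed the filter on low counts. Itgam, Itgb2, Mmp9 and Retnlg would not have passed it on their 0 h libraries alone, so a count of calls among those that passed is no support. Over all 15 found, filtered or not, every 24 h library lay above every 0 h library for 9, against 3506 of all 24147 rows. The markers summed to 9.42, 17.3 and 19.6 CPM at 0 h and to 112, 121 and 213 CPM at 24 h. In CPM, Itgam, Csf3r and Cxcr2 were at 24.8 to 61.1, 29.4 to 49.7 and 17.6 to 34.6 CPM at 24 h, and at 1.00 to 7.20, 1.4 to 2.32 and 3.21 to 7.61 CPM at 0 h, and all 3 rose (adjusted p = 0.00479, 6.17e-05 and 0.00347). The log2 fold change of Itgam, 3.36, was 4.27 without 0h replicate 3. Retnlg, a gene of mature neutrophils, had 0 counts at 0 h and 28, 54 and 37 at 24 h, at least 41.8-fold higher. Elane, a gene of neutrophil granules, had 0 counts in all 6 libraries and Mpo at most 0.211 CPM, and Ly6g was not analysed here. Prtn3, Camp, Ngp and Ltf were at most 0.895 CPM in any library. The marker sum was highest in 24 h replicate 3, as were Itgam, Csf3r and Cxcr2. The summed monocyte and macrophage markers of the next paragraph were also highest there, at 93.4, 79.5 and 177 CPM in 24 h replicates 1 to 3. S100a8 and S100a9 were highest in replicate 2, as was Retnlg, at 3.58, 5.73 and 3.91 CPM in replicates 1 to 3. Other markers of the list had their highest level in 24 h replicate 3. These were Mmp8 (0.895, 1.27 and 2.22 CPM in replicates 1 to 3), Mmp9, Itgb2 and Stfa2l1 (0.128, 0.531 and 1.59 CPM). Padi4 was lowest in that library (2.56, 2.12 and 0.952 CPM).

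**Figure D5:**
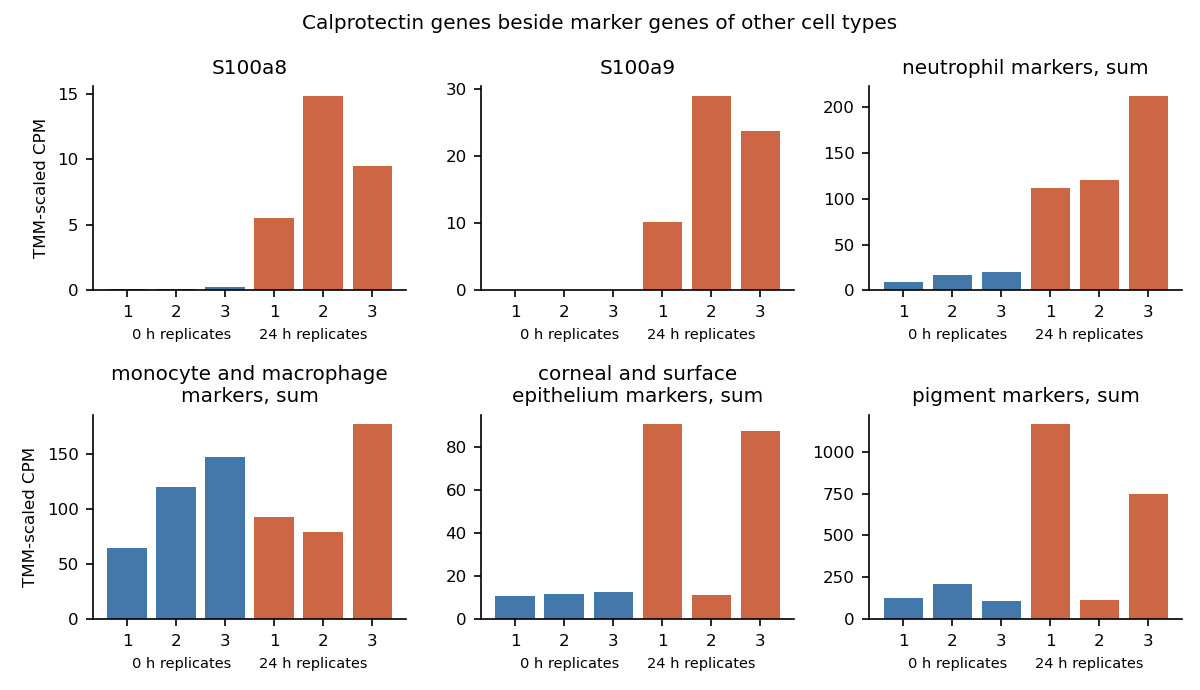
TMM-scaled CPM (y axes, from 0) of S100a8 and S100a9 and of the summed markers of 4 other cell types, 1 bar per library, blue at 0 h and orange at 24 h. S100a8, S100a9 and the neutrophil markers are above all 0 h libraries in all 3 libraries at 24 h, while corneal and pigment markers are raised in 24 h replicates 1 and 3 only.

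Monocyte and macrophage markers overlapped between the times, at 64.9 to 148 CPM summed at 0 h and 79.5 to 177 CPM at 24 h. Of 11 tested, 2 were higher and 4 lower, where 15.2% of all genes tested were higher and 13.0% lower. Cd68, a lysosomal protein of phagocytes, rose 5.85-fold, from 3.61 to 7.81 CPM to 30.6 to 40.5 CPM (adjusted p = 0.000489). Ccr2, a receptor of circulating monocytes, was at 0.301 to 0.488 CPM at 0 h and at 1.66, 2.23 and 21.0 CPM at 24 h (adjusted p = 0.0176). Ccr2 would not have passed the filter on low counts on its 0 h libraries alone. The log2 fold change of Ccr2 went from 4.36 to 2.27 without 24h replicate 3, and its call was lost in limma-voom (adjusted p = 0.145) and with any single 0 h library left out (adjusted p from 0.0552 to 0.0695). Of Ly6c2, another monocyte gene, the 0 h libraries together held 1 count and the 24 h libraries 42. Scaled, that is 44.3 times as much (exact 95% counting interval 7.53 to 1791). The genes that fell, Csf1r, Cx3cr1, Mrc1 and Cd163, are known from resident macrophages. Cx3cr1 fell 2.74-fold and Cd163 4.49-fold (adjusted p = 0.00501 and 0.00932). Csf1r fell 2.54-fold and Mrc1 3.73-fold (adjusted p = 0.0406 and 0.0471), but neither was called in limma-voom (adjusted p = 0.0587 and 0.0703), nor with 1 of 0h replicates 2 and 3 or of 24h replicates 1 and 2 left out, at adjusted p between 0.0940 and 0.174. Mrc1 was also not called with library totals only or with Rn45s left out (adjusted p = 0.0522 and 0.0511). Lyz2, the marker of highest level, was not called (adjusted p = 0.142, and 0.0488 without 24h replicate 2). Corneal and surface epithelium markers summed to 10.6 to 12.8 CPM at 0 h and to 90.5, 11.04 and 87.4 CPM at 24 h. Krt5 was at 25.2, 0.637 and 34.3 CPM and Krt15 at 51.4, 9.35 and 13.6 CPM in these 24 h libraries. Pigment markers, with Dct and Tyrp1 highest, summed to 108 to 211 CPM at 0 h and to 1163, 114 and 750 CPM at 24 h. In 24 h replicate 2, where corneal and pigment markers lay within their 0 h range, S100a8, S100a9, S100a10 and S100a16 had their highest levels. S100a6 and S100a11 were highest in 24 h replicate 3, where those markers were raised. The part of neutrophils and of the other cells in the S100 changes was not tested.

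For 3 members the genes of most similar course were named, by the smallest distance of log2 CPM, centred on its mean, over the 6 libraries. Only tested genes with a mean of at least 10 CPM at either time were searched, which leaves out low genes such as Retnlg. Such a likeness is mostly set by the difference between the 2 times. Nearest to S100a9 were Rbp4, Tnc and Cxcl3 (distances 0.77, 0.87 and 0.87 in log2 units), a retinol carrier, a matrix protein and a chemokine. Nearest to S100a6 were Bmp1, Rin3 and Chl1 (0.45, 0.50 and 0.52), of which Bmp1, a procollagen protease, was at 133 to 209 CPM in the 0 h and 473 to 762 CPM in the 24 h libraries. Nearest to S100b were Mdk, Ccdc8 and Mrps11 (0.28, 0.33 and 0.37), none of them called.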

How the data were processed

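RNA was sequenced in 6 libraries, and the authors deposited, for each gene, its position, length, read counts (whole numbers) and RPKM values. Per the submitters' processing notes reads were handled with TopHat2 2.1.0 and HTSeq 0.6.1p1 among other tools, on mm10, while the annotation and the strand setting are not given in the sources read. The deposited RPKM equal the counts divided by gene length and library total, and entered no test.

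Genes were filtered with filterByExpr (13956 of 24147 left), scaled by TMM and compared between 24 h and 0 h with the two-sided quasi-likelihood test of edgeR 4.0.16 in R 4.3.3, called at an adjusted p under 0.05. Every adjusted p given comes from this test unless another tool is named. The standard error (SE) is the log2 fold change over the square root of F. Floors are 3 counts, and intervals of counts cover counting error only. DESeq2 1.42.0 and limma-voom (limma 3.58.1) were alternatives, and the scripts were tested on simulated data. Replicate numbers were not used to pair the libraries in the main test.

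The S100 genes and the gene lists were chosen with earlier results of these data known. Besides the 10 members, genes were named by level (the 3 highest of each partner list, the 2 highest of each marker list) or by likeness. Others were named as other S100 genes with at least 3 counts in a library, or as called genes of the chromosome 3 interval. The few genes called in a list and examples so marked were named after their values were seen. So were Ager, Tlr4, Gfap, Retnlg, Ly6c2, Anxa9, Mmp8, Mmp9, Itgb2, Stfa2l1, Padi4 and markers at or near 0. Adgre1 was found under its older symbol, and Flg and Ly6g were not analysed here. A few genes that the rule names are not reported here.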

Additional observations from a re-analysis of the deposited data

How the results depend on the processing

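The 6 S100 genes called higher numbered 6, and those called lower 0, under all 15 alternatives: other scalings and filters, DESeq2, limma-voom, a test against a 1.5-fold change, a replicate block, Rn45s left out and each library left out. For S100a6, S100a10, S100a11, S100a16, S100a8 and S100a9 each, the direction and the call held in all 15, with adjusted p at most 0.0358 (S100a11). Uncalled members stayed uncalled, and S100b ranged from -0.46 to 0.26 (without 0h replicate 1) on the log2 scale. Over all genes, 3942 were called (1817 lower), and against a 1.5-fold change 1689 (1060 higher, 629 lower). Leaving out a library gave 2717 to 3545 called genes, 1551 to 1897 higher and 1041 to 1648 lower, the fewest lower without 0h replicate 3. The replicate block gave 4489 called genes. Across genes, same-numbered libraries deviated together with r of 0.087, 0.215 and 0.397, and those of different number with r of -0.350 to 0.172. The numbers are not known to mark a shared source. Of 64 other named genes, 22 changed their call in at least 1 alternative. Signs turned between left-out libraries, none of these genes called, for Anxa1 (-0.70 to 0.16), Glul (-0.080 to 0.22), Ager (-0.49 to 0.061), Tlr4 (-0.26 to 0.064, and 0.032 with library totals only), Mdk (-0.35 to 0.20), Ccdc8 (-0.34 to 0.16) and Mrps11 (-0.14 to 0.47). The cause of these changes was not tested. Depth limits S100a13, S100b and the S100 genes that failed the filter, which rest on few counts in each library.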
